A study of Mus musculus with 20 samples.

Results

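The 9 genes described here encode kinases of calcium signalling and memory: Camk2a, Camk2b, Camk2d and Camk2g, the subunits of CaMKII; Camk4, the nuclear kinase CaMKIV; and Prkca, Prkcb, Prkce and Prkcz, members of the protein kinase C family. They were chosen by name, with earlier results of these data known, as the rows of the deposited count table with these symbols. All 9 of the 9 were found among its 18054 genes. Each of the 9 also passed the filter on low counts in footprints and in input RNA.

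CaMKII is a holoenzyme of many subunits that is abundant at glutamatergic synapses. Calcium-bound calmodulin opens each subunit, and the subunits then phosphorylate one another, which keeps the kinase active after the calcium signal has ended. CaMKIV sits mainly in the nucleus, where it is switched on by calmodulin and by CaM kinase kinase and phosphorylates the transcription factor CREB. PKCα and PKCβ are conventional isoforms that need calcium and diacylglycerol, PKCε needs diacylglycerol but no calcium, and PKCζ is atypical and needs neither. In brain Prkcz also gives PKMζ, a constantly active form without the regulatory region. Work in mouse and rat has tied these kinases to long-term potentiation and to memory that depends on the hippocampus.

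The libraries came from the hippocampus of Qtrt1-/- mice and wild-type mice. Qtrt1 makes the catalytic part of tRNA-guanine transglycosylase, which puts queuosine into the anticodon of tRNAs for asparagine, aspartate, histidine and tyrosine. Ribosome footprints, the stretches of mRNA that ribosomes shield from nuclease, and input RNA, the cytoplasmic RNA of the same lysate, were sequenced from each of 10 animals, 20 libraries in all. Females comprised 3 Qtrt1-/- animals, all aged 6 months and 21 days, and 3 wild-type animals aged 6 months and 21 days or, in 1 case, 22 days. Males comprised 2 Qtrt1-/- and 2 wild-type animals, and in each genotype 1 was aged 6 months and 18 days and the other 5 months and 16 days. The labels name no driver or cell type that would limit the allele, and describe neither the strain nor the way the allele was made. The sexes were compared because the title of the series speaks of effects on learning and memory that depend on sex.

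Footprint libraries held 5357812 to 15517982 counts and input libraries 9000662 to 13637370. Levels are CPM, the counts of a gene scaled to library size with TMM factors, and differences are log2 fold changes of Qtrt1-/- over wild type, with the standard error (SE) of the fit and a Benjamini-Hochberg adjusted p from edgeR over all genes tested. Qtrt1 itself stood at 0.129 to 0.606 CPM in the footprints of Qtrt1-/- females, against 4.25 to 6.15 CPM in wild-type females, and at 0.495 to 1.28 CPM in Qtrt1-/- males, against 5.78 to 8.46 CPM in wild-type males. Each of the 10 markers of hippocampal fields was detected in every library. Their footprint means were 5.90, 6.01 and 6.11 log2 CPM in Qtrt1-/- females, against 5.27, 5.99 and 5.24 in wild-type females, with 9 of the 10 log2 fold changes above 0, 1 called higher and 1 called lower. In males these means were 6.26 to 6.52 log2 CPM in Qtrt1-/- and 5.73 to 6.27 in wild-type animals. Females also differed in several markers of other tissue and cell types. Over all genes, 4.25% were called lower and 2.81% higher in female footprints, the shares to set beside the marker counts. The mean of 15 striatum markers in footprints was 3.87, 5.07 and 3.59 log2 CPM in Qtrt1-/- females, against 5.79, 4.63 and 5.79 in wild-type females, while the 4 males lay between 3.53 and 4.04. Of these markers 14 could be tested in footprints, and 5 fell in Qtrt1-/- females. The mean of 12 choroid plexus markers was 6.36, 6.07 and 4.65 log2 CPM in Qtrt1-/- females, against 2.20, 2.52 and 5.56 in wild-type females, while the males lay between 6.02 and 6.45. Of 10 markers of cortex and subiculum, 5 fell and 1 rose in Qtrt1-/- female footprints. In males their footprint means were 5.59 and 5.68 log2 CPM in Qtrt1-/- and 5.72 and 6.10 in wild-type animals. There 9 of the 10 log2 fold changes were below 0, with 0 called. Markers of meninges and vessels had means of 4.57 to 4.95 log2 CPM in Qtrt1-/- females and 3.98 to 4.30 in wild-type females, and 4 of 8 rose. In males their means were 4.52 to 4.65 log2 CPM in Qtrt1-/- and 4.73 to 4.77 in wild-type animals. Interneuron markers had means of 7.14 to 7.28 log2 CPM in Qtrt1-/- females and 7.35 to 7.69 in wild-type females, and 1 of 7 fell. Astrocyte markers had means of 8.57 to 8.59 log2 CPM in Qtrt1-/- females and 8.41 to 8.48 in wild-type females, and 2 of 8 rose. Means of 8 thalamus markers were 3.34 to 3.86 log2 CPM in Qtrt1-/- females and 3.22 to 3.71 in wild-type females. These ranges overlapped, and 1 of the 8 markers fell. In males the thalamus means were 3.22 to 3.78 log2 CPM in Qtrt1-/- and 3.67 to 4.61 in wild-type animals. All 8 thalamus log2 fold changes in male footprints were below 0, with 0 called. Wild-type females 1 and 3 and Qtrt1-/- female 2 were thus the highest in striatum markers, and wild-type females 1 and 2 the lowest in choroid plexus markers. The comparisons in females are given below with and without these animals.

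The kinases covered a wide range of footprint density. Per kilobase of coding sequence, Camk2a had 2189 ± 111 CPM in Qtrt1-/- animals and 2166 ± 481 CPM in wild-type animals (SD, n = 5 each, both sexes). Camk2b followed with 638 ± 86.2 CPM per kilobase in Qtrt1-/- and 671 ± 95.6 in wild-type animals, and Prkcb with 483 ± 44.5 in Qtrt1-/- and 596 ± 126 in wild-type animals. In wild-type animals these 2 lay within a standard deviation of each other. Prkce had 221 ± 14.2 CPM per kilobase in wild-type animals. Camk4 with 185 ± 35.9, Camk2g with 150 ± 34.8 and Prkca with 139 ± 19.9 came next there, neighbours whose spreads overlapped. Camk2d with 89.2 ± 20.8 and Prkcz with 15.2 ± 1.18 CPM per kilobase closed the order in wild-type animals.

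Footprints relative to input RNA, a measure of how heavily an mRNA is loaded with ribosomes, also differed widely. CPM in these and later ratios of footprint to input was scaled to library size without TMM factors. On the log2 scale, the ratio of footprint to input CPM averaged 1.98 for Camk2a in wild-type animals, higher than for 99.0% of 14146 genes. Camk2b stood at 0.99, Camk4 at 0.83, Camk2d at 0.77, Prkca at 0.65 and Camk2g at 0.30, at percentiles 89.8, 86.1, 84.7, 81.2 and 69.2 of all genes. Prkcb was near parity at 0.04 and Prkce at −0.32, while Prkcz stood at −2.63, at percentile 3.24. Whether input reads in untranslated regions were counted was not given in the sources used here, which limits these ratios between genes. Its bearing on the comparisons between genotypes was not tested.

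The coding sequences of the 9 kinases, read from GENCODE M21 (GRCm38), hold 14.07% to 17.57% codons for asparagine, aspartate, histidine and tyrosine, the codons read by tRNAs that carry queuosine. The median over 20887 genes was 13.7%. Camk4 lay at percentile 55.2 of genes and Camk2b at 71.4. Prkca at percentile 90.5 and Prkcz at percentile 90.6 had the highest shares of the 9. Between 0% and 0.654% of the 28-base stretches of each coding sequence also occur in the coding sequence of another gene, so reads of the 9 can seldom be assigned to a relative. An exon of Apoh on the opposite strand covers 1.49% of the Prkca coding sequence, and no other member has such an overlap.

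**Figure D1:**
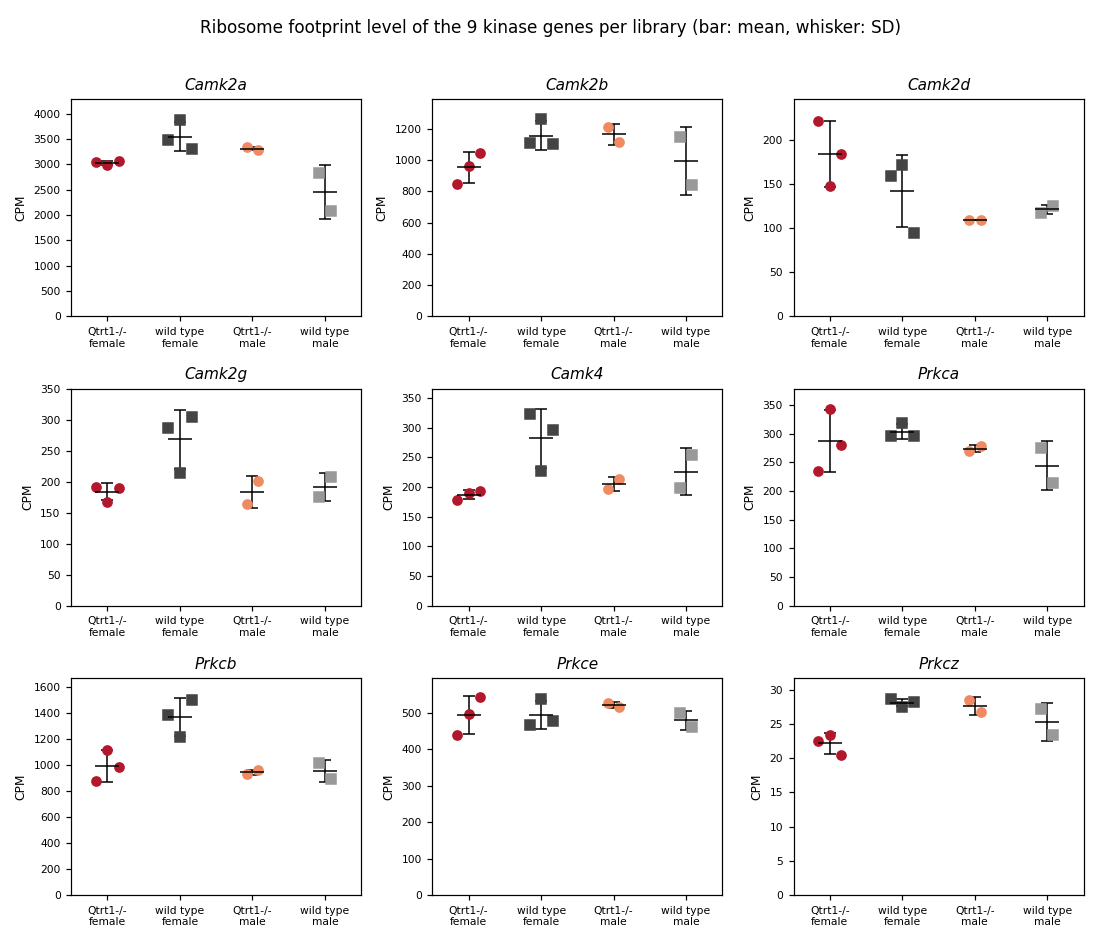
Footprint level of each of the 9 kinase genes (y axis, CPM, from 0) in every footprint library, by genotype and sex, with bars for the group mean and whiskers for the SD. In females the Qtrt1-/- points of Camk2a, Camk2b, Camk2g, Camk4, Prkcb and Prkcz all lie below the wild-type points, and in males the Camk2a points of Qtrt1-/- animals lie above those of wild-type animals.

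In females, footprints of 3 of the 9 kinases fell in Qtrt1-/- hippocampus: Camk4, Camk2g and Prkcb. Over all 13143 genes tested, 7.06% passed the same threshold in either direction, 4.25% downward and 2.81% upward. None of the other 6 kinases passed the threshold. The median log2 fold change of the 9 was −0.28, against 0.00 over all genes, and 8 of the 9 values were below 0. In 6 of the 9 every Qtrt1-/- female stood below every wild-type female, which was the case for 17.8% of all genes. Lower counts in whole tissue can come from fewer cells of a type or from less RNA per cell, and these cannot be told apart here.

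Camk4 (chr18:32934931-33191228, plus strand, GRCm38) encodes CaMKIV. Its footprints were 178, 189 and 193 CPM in Qtrt1-/- females, against 323, 227 and 296 CPM in wild-type females. The Qtrt1-/- libraries lay close together and below all wild-type libraries, of which female 2 was the lowest. The log2 fold change was −0.60 ± 0.13 (SE), with an edgeR adjusted p of 0.0207.

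Camk2g (chr14:20734875-20794088, minus strand) encodes the γ subunit of CaMKII, which in rodent neurons has been described as carrying calmodulin to the nucleus. Its footprints were 192, 168 and 191 CPM in Qtrt1-/- females and 287, 215 and 304 CPM in wild-type females. The groups did not overlap, and wild-type female 2 was again the nearest to the Qtrt1-/- libraries. The log2 fold change was −0.55 ± 0.13, with an edgeR adjusted p of 0.0304.

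Prkcb (chr7:122288751-122634402, plus strand) encodes PKCβ, a conventional isoform needed for contextual fear memory in mice. Its footprints were 876, 1118 and 985 CPM in Qtrt1-/- females and 1390, 1216 and 1506 CPM in wild-type females. Qtrt1-/- female 2 came nearest to the wild-type range without reaching it. The difference was −0.46 ± 0.11 on the log2 scale, with an edgeR adjusted p of 0.0304.

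These 3 calls rested on the choice of animals. Leaving out Qtrt1-/- female 1 or wild-type female 1 left 0 of the 3 past the threshold. Without Qtrt1-/- female 2 only Prkcb was called, and without Qtrt1-/- female 3 or wild-type female 3 only Camk4. With a replicate block Camk2g and Camk4 were called and Prkcb was not. A comparison without the 3 females highest in striatum markers, chosen after seeing the data, keeps 2 Qtrt1-/- females and 1 wild-type female. The wild-type female kept, female 2, had choroid plexus markers at 2.52 log2 CPM, against 6.36 and 4.65 in the Qtrt1-/- females kept. The setting thus does not balance choroid plexus markers. Female 2 also had the lowest wild-type female level of all 3 genes. The log2 fold changes in this setting were −0.16 for Camk2g, −0.29 for Camk4 and −0.38 for Prkcb. Without the 2 females lowest in choroid plexus markers they were −0.71, −0.65 and −0.58. That setting, also chosen after seeing the data, keeps wild-type female 3 as the only wild-type female. Her striatum marker mean of 5.79 log2 CPM is among the highest, so the setting does not balance striatum markers. Wild-type female 2 had 227 CPM of Camk4 at a striatum marker mean of 4.63 log2 CPM, and Qtrt1-/- female 2 had 189 CPM at 5.07 log2 CPM. This is 1 animal of each genotype, and they also differed in choroid plexus markers, at 2.52 and 6.07 log2 CPM. The part of striatal tissue in these differences was not tested further. Markers of cortex and subiculum, whose footprint means were 5.55 to 5.85 log2 CPM in Qtrt1-/- females and 5.90 to 6.18 log2 CPM in wild-type females, moved with these genes too, as did the markers of interneurons and, in the opposite direction, those of hippocampal fields and of meninges and vessels. Their part in the result was not tested.

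**Figure D2:**
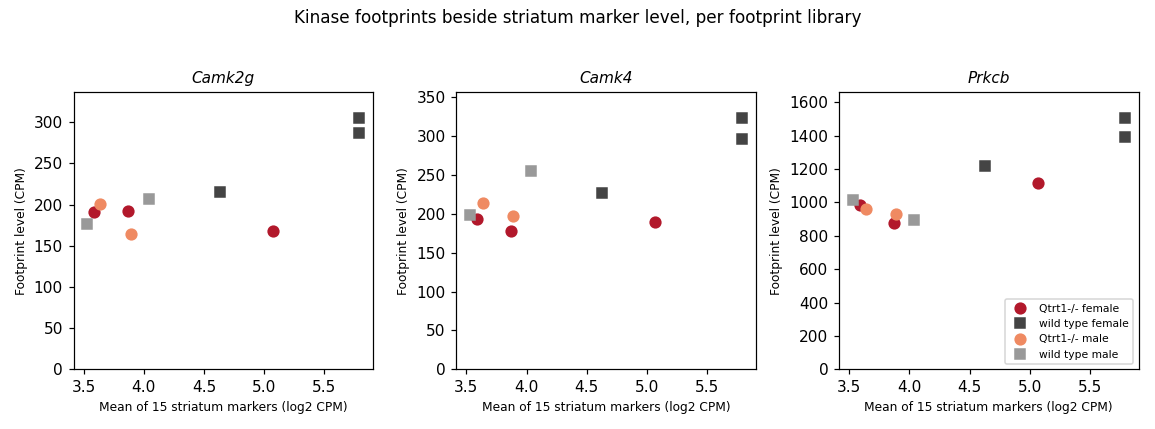
Footprint level of Camk2g, Camk4 and Prkcb (y axes, CPM, from 0) against the mean of 15 striatum markers (x axis, log2 CPM) in each of the 10 footprint libraries. The wild-type females with marker means of 5.79 hold the highest levels of all 3 genes, and Qtrt1-/- female 2, at 5.07, lies below wild-type female 2, at 4.63, in each panel.

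The other CaMKII subunits did not pass the test in females. Camk2a (chr18:60925618-60988152, plus strand), the α subunit and the most abundant kinase of the set, had 3035, 2975 and 3065 CPM in Qtrt1-/- females, against 3474, 3869 and 3295 CPM in wild-type females. Every Qtrt1-/- library was below every wild-type library, at a log2 fold change of −0.23 ± 0.12 and an edgeR adjusted p of 0.232. Camk2b (chr11:5969644-6066362, minus strand), the β subunit that binds actin in spines, had 848, 965 and 1046 CPM in Qtrt1-/- females and 1106, 1263 and 1102 CPM in wild-type females. These groups did not overlap either, with a log2 fold change of −0.28 ± 0.12 and an edgeR adjusted p of 0.172. Camk2d (chr3:126596302-126846326, plus strand), the δ subunit best known from heart, had 222, 147 and 184 CPM in Qtrt1-/- females and 159, 171 and 95.1 CPM in wild-type females. Its groups overlapped, and its log2 fold change of 0.38 ± 0.19, with an edgeR adjusted p of 0.212, was the only one of the 9 above 0.

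The remaining protein kinase C isoforms did not pass the test in females either. Prkca (chr11:107933387-108343928, minus strand), which encodes PKCα, had 236, 344 and 280 CPM in Qtrt1-/- females and 296, 319 and 297 CPM in wild-type females. The Qtrt1-/- range enclosed the wild-type range, and the log2 fold change was −0.08 ± 0.13 with an edgeR adjusted p of 0.729. Prkce (chr17:86167785-86657919, plus strand), which encodes PKCε, had 440, 498 and 545 CPM in Qtrt1-/- females and 467, 539 and 479 CPM in wild-type females, with a log2 fold change of −0.0030 ± 0.10 and an edgeR adjusted p of 0.991. Prkcz (chr4:155260129-155361361, minus strand) had the lowest footprint level of the set. It had 22.6, 23.5 and 20.5 CPM in Qtrt1-/- females and 28.6, 27.6 and 28.2 CPM in wild-type females. The groups were tight and apart, yet the log2 fold change of −0.35 ± 0.12 had an edgeR adjusted p of 0.1. Its values rest on 157 to 199 footprints per female library.

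**Figure D3:**
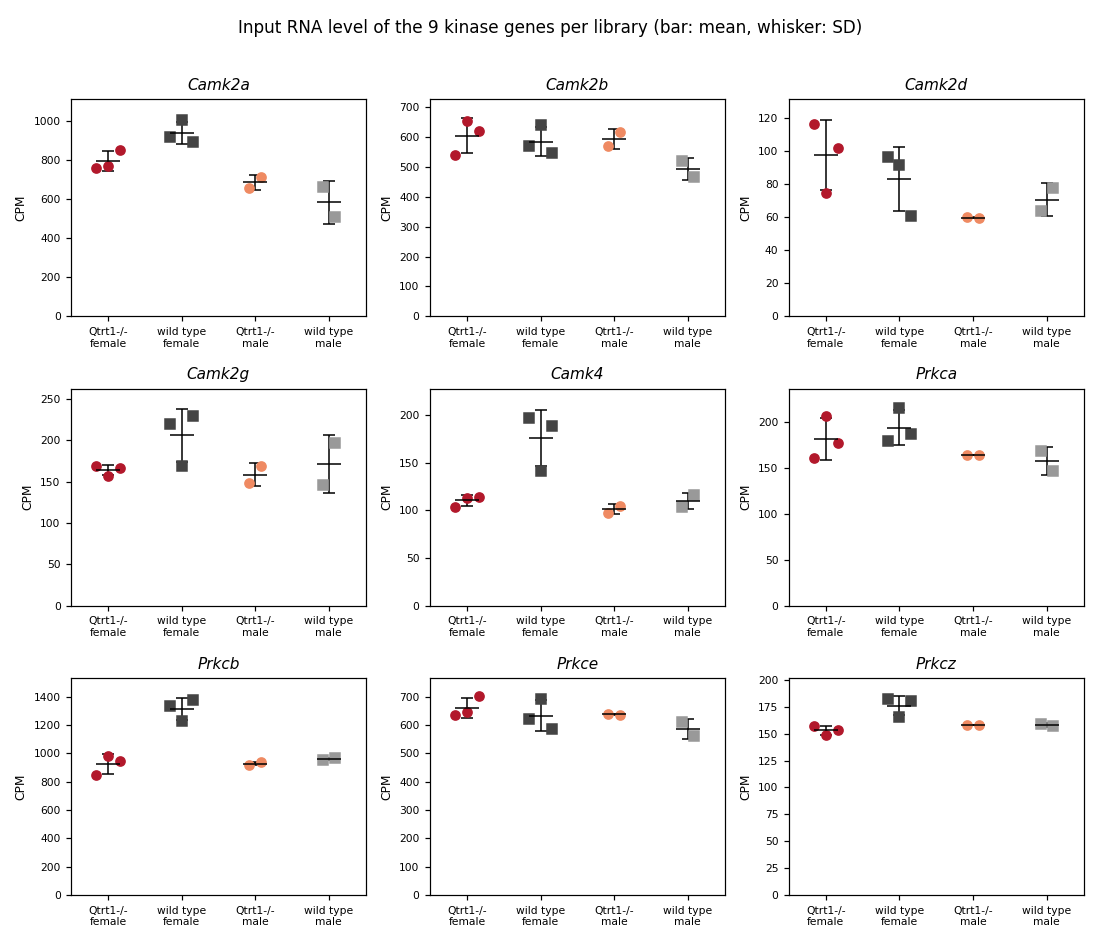
Input RNA level of each of the 9 kinase genes (y axis, CPM, from 0) in every input library, by genotype and sex, with bars for the group mean and whiskers for the SD. The female fold changes furthest from 0 are those of Camk4, at −0.67 on the log2 scale, and Prkcb, at −0.51, whose male groups sit close together.

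In input RNA of females, Camk4 and Prkcb fell in Qtrt1-/- animals, 2 of the 9 kinases. Over all 14164 genes tested, 3.48% were called in either direction and 2.73% downward. The median log2 fold change of the 9 was −0.20, against 0.01 over all genes. In 5 of the 9 every Qtrt1-/- female was below every wild-type female, against 13.4% of all genes.

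Camk4 input RNA was 104, 113 and 114 CPM in Qtrt1-/- females and 196, 142 and 189 CPM in wild-type females. The pattern over animals was that of its footprints, with wild-type female 2 the nearest to the Qtrt1-/- libraries. The log2 fold change was −0.67 ± 0.11, with an edgeR adjusted p of 0.0119. Prkcb input RNA was 844, 983 and 945 CPM in Qtrt1-/- females and 1336, 1225 and 1376 CPM in wild-type females. Here the wild-type libraries lay close together and well above the Qtrt1-/- libraries. This was a log2 fold change of −0.51 ± 0.07, with an edgeR adjusted p of 0.0102.

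Camk2g input RNA was 169, 157 and 167 CPM in Qtrt1-/- females and 219, 169 and 229 CPM in wild-type females, where wild-type female 2 all but met the Qtrt1-/- range. Its log2 fold change of −0.33 ± 0.12 had an edgeR adjusted p of 0.149. Prkcz at −0.20 ± 0.06 (edgeR adjusted p 0.0738) and Camk2a at −0.24 ± 0.09 (0.172) also had groups that did not overlap without passing the test. Log2 fold changes of Camk2b, Camk2d, Prkca and Prkce lay between −0.10 and 0.23 with edgeR adjusted p of 0.495 to 0.799. Without Qtrt1-/- female 1, 0 of the 9 were called in input RNA. Without wild-type female 1 only Prkcb was called, and without wild-type female 2 Camk2g and Prkcz were called as well, 4 in all. Without the 3 females highest in striatum markers, which again keeps only wild-type female 2 of the wild-type females, Camk4 stood at −0.38 and Prkcb at −0.46. The striatum markers in input RNA had means of 3.93, 5.06 and 3.44 log2 CPM in Qtrt1-/- females and 5.79, 4.52 and 5.57 log2 CPM in wild-type females, the same order of animals as in footprints.

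In males none of the 9 kinases passed the test, in footprints or in input RNA, and neither did any other gene: 0% of genes were called by edgeR in both assays, with 562 genes in footprints and 1246 in input RNA at an unadjusted p under 0.05. DESeq2 called 1 gene in footprints and 3 in input RNA, none of them a kinase of the set. With 2 animals per genotype the spread was taken from all 4 groups. Qtrt1 itself was not called in males, at −2.88 ± 0.46 on the log2 scale in footprints (edgeR adjusted p 0.230). In male input RNA it stood at −1.26 ± 0.22 (edgeR adjusted p 0.373). The absence of calls in males therefore does not show an absence of change. The median log2 fold change of the 9 in male footprints was 0.12, against −0.00 over all genes, and in male input RNA 0.00 against 0.00. Every Qtrt1-/- male was above every wild-type male in 2 of the 9 for footprints (13.2% of all genes) and below in 1 (13.7%). In input RNA the counts were 2 above (19.3% of all genes) and 2 below (18.5%).

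Camk2a had the largest male difference in footprints. It stood at 3334 and 3283 CPM in Qtrt1-/- males and 2822 and 2072 CPM in wild-type males. Both Qtrt1-/- males were above both wild-type males, the opposite order to that in females. Camk2a thus had a log2 fold change of 0.43 ± 0.14, with an edgeR adjusted p of 0.963. With 1 animal left out this ran from 0.23 to 0.68. Wild-type male 2, the lower, had thalamus markers at 4.61 log2 CPM in footprints, against 3.22 to 3.78 in the other males. In that animal markers of hippocampal fields averaged 5.73 log2 CPM, against 6.26 to 6.52 in the other males. Its markers of cortex and subiculum averaged 6.10 log2 CPM, against 5.59 to 5.72 in the other males. The part of tissue make-up in this difference was not tested. Camk4 had 197 and 213 CPM in Qtrt1-/- males and 198 and 254 CPM in wild-type males, and Camk2g had 165 and 201 CPM in Qtrt1-/- males and 176 and 207 CPM in wild-type males. Prkcb had 931 and 960 CPM in Qtrt1-/- males and 1015 and 894 CPM in wild-type males. For these 3 genes the male groups overlapped, with log2 fold changes of −0.14, −0.07 and −0.01 and edgeR adjusted p of 0.963 or more. Every male value of Camk2g and Prkcb, in both genotypes, lay below the lowest wild-type female, whereas the Camk4 level of wild-type male 2 lay above that of wild-type female 2. The other 5 kinases had male footprint fold changes of −0.15 to 0.23 on the log2 scale. In male input RNA the log2 fold changes of the 9 ran from −0.24 for Camk2d to 0.27 for Camk2b, with edgeR adjusted p of 0.527 or more.

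**Figure D4:**
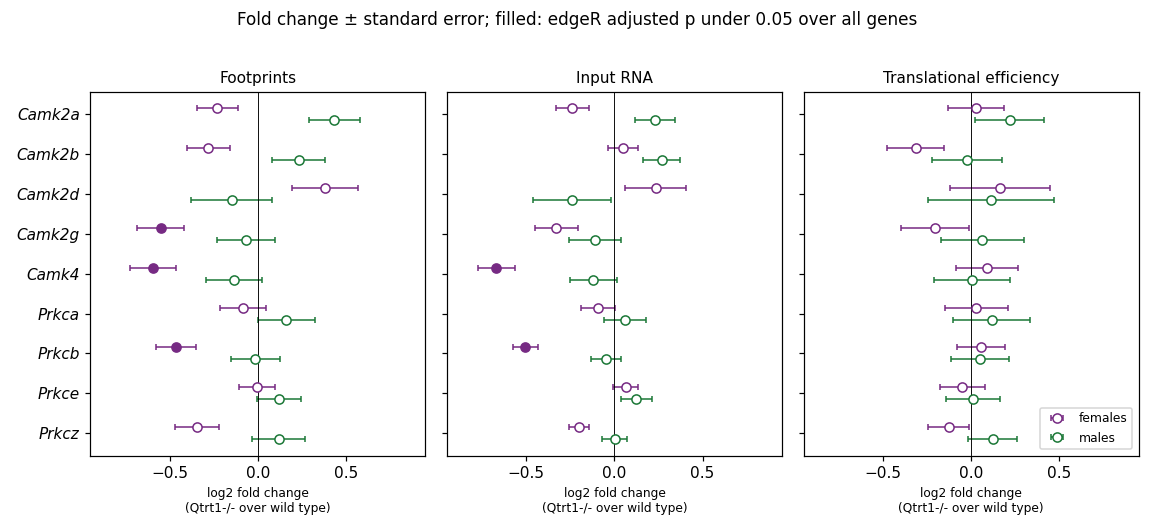
Log2 fold change of Qtrt1-/- over wild type with its standard error (x axis) for each kinase gene (y axis), in females and males, for footprints, input RNA and translational efficiency, with filled points for an edgeR adjusted p under 0.05. Filled points are Camk2g, Camk4 and Prkcb in female footprints and Camk4 and Prkcb in female input RNA, and no male or efficiency point is filled.

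The difference between the sexes was tested as the female log2 fold change minus the male one. None of the 9 kinases passed in footprints or in input RNA, and edgeR called 0% of all genes in both, with 1109 and 1339 genes at an unadjusted p under 0.05. DESeq2 called 25 and 45 genes. In footprints, Camk2a had the largest value of the set, −0.66 ± 0.18, with an edgeR adjusted p of 0.348. Camk2g at −0.48 ± 0.21, Camk4 at −0.46 ± 0.21 and Prkcb at −0.45 ± 0.18 had edgeR adjusted p of 0.526 to 0.577. In input RNA, Prkcb had −0.46 ± 0.11 with an edgeR adjusted p of 0.260, which was 0.0084 with DESeq2. Camk4 had −0.55 ± 0.17 with an edgeR adjusted p of 0.342, and Camk2a −0.47 ± 0.15 with 0.343. A difference of the knockout effect between the sexes was thus not established for these genes, and the sexes also differed in age and in the range of striatum markers.

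Averaged over the sexes, Prkcb fell in input RNA, with a log2 fold change of −0.28 ± 0.05 and an edgeR adjusted p of 0.0489. It was the only call among the 9, where 0.734% of all genes were called, 0.642% downward and 0.0918% upward. Camk4 had −0.39 ± 0.08 with an edgeR adjusted p of 0.0539. Without a filter, and with DESeq2, both Prkcb and Camk4 were called. With a replicate block neither was called. In footprints 0 of the 9 were called by edgeR, against 0.00761% of all genes, and 2576 genes were at an unadjusted p under 0.05. That share is itself unsteady, since 534 genes were called without a filter on low counts, 525 with DESeq2 and up to 1453 with 1 animal left out. Camk4 came nearest, at −0.37 ± 0.10 with an edgeR adjusted p of 0.0951, and it was called without a filter and with DESeq2. The average call of Prkcb in input RNA was lost without any 1 of the 6 females other than wild-type female 2, and without either Qtrt1-/- male or wild-type male 2, and also without the 3 females highest in striatum markers.

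Translational efficiency, the change of footprints beyond that of input RNA, did not pass the test for any of the 9 kinases. In females edgeR called 0.0424% of 14146 genes, and in males, over both sexes and between the sexes 0%, with 1787, 367, 1458 and 409 genes at an unadjusted p under 0.05. Footprints and input RNA came from the same animals, and with the animal as a block 394 genes were called in females, 1 in males and 114 over both sexes, none of them one of the 9. With DESeq2 138 were called in females and 55 over both sexes. DESeq2 called none of the 9 in any of these comparisons. For the genes that fell in footprints, the female efficiency difference was −0.21 ± 0.19 for Camk2g, 0.09 ± 0.18 for Camk4 and 0.06 ± 0.14 for Prkcb on the log2 scale, with edgeR adjusted p of 0.706 to 0.915. With the animal as a block these were −0.20 ± 0.09, 0.09 ± 0.09 and 0.06 ± 0.08, with edgeR adjusted p of 0.222, 0.619 and 0.758. The log2 ratio of footprint to input CPM of Camk2g was 0.17, 0.09 and 0.20 in Qtrt1-/- females and 0.40, 0.37 and 0.41 in wild-type females. These groups did not overlap, and neither did the female groups of Camk4, where Qtrt1-/- was higher. Camk4 and Prkcb had female log2 fold changes of −0.60 and −0.46 in footprints and of −0.67 and −0.51 in input RNA, differences within their standard errors. Camk2b had the lowest efficiency difference of the set in females, −0.31 ± 0.16 with an edgeR adjusted p of 0.434, which was 0.0584 with the animal as a block. Its log2 ratio of footprint to input CPM was 0.63, 0.55 and 0.75 in Qtrt1-/- females and 0.97, 1.00 and 1.02 in wild-type females, and 1.11 and 0.85 in Qtrt1-/- males and 1.16 and 0.82 in wild-type males. The female groups did not overlap and the male groups did. Camk2d had the highest female value, 0.17 ± 0.29. In males the 9 efficiency differences lay between −0.02 and 0.22.

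The wider calcium pathway was described with 5 lists of genes, chosen with earlier results of these data known. Their counts, set beside the shares over all genes, thus describe the lists and test nothing about the pathway. Among 18 calcium sensors and upstream activators, 6 fell and 0 rose in female footprints, and 6 fell and 0 rose in female input RNA. Over all genes, 4.25% fell and 2.81% rose in female footprints, and 2.73% fell and 0.748% rose in female input RNA. Itpr1, the receptor through which inositol trisphosphate releases calcium from the endoplasmic reticulum, had 556, 614 and 523 CPM of footprints in Qtrt1-/- females and 941, 796 and 947 CPM in wild-type females. The groups were far apart, with a log2 fold change of −0.67 ± 0.11 and an edgeR adjusted p of 0.0087, and −0.70 ± 0.10 in input RNA. Camkk2, a kinase that phosphorylates CaMKIV, had 91.3, 102 and 91.1 CPM of footprints in Qtrt1-/- females and 158, 120 and 155 CPM in wild-type females. The groups did not overlap, and wild-type female 2 was the lowest of its group. Its log2 fold change was −0.61 ± 0.11 with an edgeR adjusted p of 0.0110. Camkk2 input RNA fell by 0.69 on the log2 scale. Plcb4, a phospholipase C that makes diacylglycerol and inositol trisphosphate, fell by 0.94 ± 0.17 in female footprints, and Plcb1, another isoform, fell by 0.43 ± 0.06 in female input RNA. The median log2 fold change of the 18 was −0.23 in female footprints and 0.08 in male footprints, against 0.00 and −0.00 over all genes.

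Among 14 other CaM kinases and protein kinase C isoforms, 1 rose and 0 fell in female footprints and none was called in input RNA, a count near that over all genes. The gene that rose was Camk1d, a CaM kinase I isoform, with 159, 156 and 155 CPM in Qtrt1-/- females and 110, 124 and 117 CPM in wild-type females. The groups were apart, at a log2 fold change of 0.42 ± 0.11 and an edgeR adjusted p of 0.0428. Among 16 inhibitors, anchors and phosphatases, 1 fell in each assay, likewise near the share over all genes. Pick1, which anchors PKCα at synapses, had 9.09, 7.86 and 11.7 CPM of footprints in Qtrt1-/- females and 22.0, 17.4 and 18.7 CPM in wild-type females, a log2 fold change of −1.02 ± 0.20 with an edgeR adjusted p of 0.0148. Its input RNA was 7.78 to 9.50 CPM in Qtrt1-/- females and 6.77 to 8.06 CPM in wild-type females, ranges that overlapped. Its footprints rested on 61 to 143 counts per female library, and 0 of the 16 genes were called by edgeR for efficiency in females. Camk2n1, a natural inhibitor of CaMKII, fell by 0.50 ± 0.12 in input RNA, with an edgeR adjusted p of 0.0415. Its footprint difference in females was 0.06 ± 0.14, with an edgeR adjusted p of 0.812.

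Among 21 substrates and targets, 5 fell and 0 rose in female footprints, where 4.25% of all genes fell and 2.81% rose. In female input RNA 2 fell, against 2.73% of all genes. Nrgn, neurogranin, which holds calmodulin and is phosphorylated by protein kinase C, had 277, 291 and 342 CPM of footprints in Qtrt1-/- females and 483, 421 and 458 CPM in wild-type females. The log2 fold change was −0.58 ± 0.11 with an edgeR adjusted p of 0.0120, and −0.54 ± 0.08 in input RNA. Kalrn, a guanine nucleotide exchange factor of spines, fell by 0.41 ± 0.10 in footprints. Stx1a, the presynaptic membrane protein syntaxin 1A, fell by 0.51 ± 0.11 in input RNA and is also one of the cortex and subiculum markers above. Among 15 other memory kinases, 2 rose and 1 fell in female footprints and 1 fell in female input RNA. Fyn, a Src family kinase, rose by 0.32 ± 0.09 and Mapk3, which encodes ERK1, by 0.41 ± 0.11, while Cdk5r1, the activator of Cdk5, fell by 0.56 ± 0.12. Gsk3b fell by 0.34 ± 0.07 in female input RNA and by 0.29 ± 0.05 averaged over the sexes. In males 0 genes of the 5 lists were called in either assay. Without the 3 females highest in striatum markers at most 1 gene of these lists could be called in female footprints, since that was the count of the whole table.

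The genes whose footprint levels were most like those of the called kinases over the 10 libraries were picked from 13142 genes by Pearson's correlation of log2 CPM. Camk4 was most like Brsk2 (r = 0.95), Kctd1 (0.948) and Myl4 (0.946), and Camk2g most like Sfxn3 (0.972), Adra1b (0.962) and Pamr1 (0.952). Prkcb was most like Nos1ap (0.969), Gcnt2 (0.96) and Phactr1 (0.959). Camk2a, described for comparison, was most like Faxc (0.972) and Med13l (0.964). These are the highest of many values over 10 libraries that share groups and scaling, and they are given as a description only.

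Footprints by codon could be followed in Prkca alone. The deposited codon tables listed no codon of Camk2a, Camk2g, Camk4, Prkce or Prkcz and at most 2 codons of Camk2b, Camk2d and Prkcb in a library, while Prkca had 62 to 113 listed codons with 346 to 1529 footprints per library. All lay between codons 94 and 278 of the 672 of the Prkca coding sequence, in the N-terminal regulatory region. No 28-base stretch centred there occurs in the other annotated Prkca coding transcript, against 46.5% of those centred outside. Of the coding sequences of the other kinases, 95.5% of Prkcz and 100% of the other 7 recur in another transcript of the same gene. Whether the tables were limited to reads with a unique transcript was not given in the sources used here.

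Footprints on Prkca gathered at few codons, and 10 positions held 54.0% of them on average. The stretches around 3 of these positions are shown because they hold the highest peaks of the profile. They are from GENCODE M21 transcripts on GRCm38, minus strand, 5′ to 3′, with the listed codons of the peaks in capitals. The first stretch, codons 138 to 158, lies in exon 5 at chr11:108054030-108054092, and the second, codons 237 to 264, lies in exon 7 at chr11:108012974-108013057.
Prkca codons 138 to 158: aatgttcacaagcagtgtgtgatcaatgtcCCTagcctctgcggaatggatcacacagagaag
Prkca codons 237 to 264: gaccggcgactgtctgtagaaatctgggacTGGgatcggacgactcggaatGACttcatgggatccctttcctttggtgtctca

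The capitals mark codon 148 in the first stretch and codons 247 and 254 in the second. Codon 148, for proline, held 10.6%, 10.0% and 8.16% of the listed Prkca footprints in Qtrt1-/- females, 4.73%, 3.86% and 6.34% in wild-type females, 14.3% and 15.0% in Qtrt1-/- males and 10.4% and 16.5% in wild-type males. The female groups did not overlap and the male groups did. The difference averaged over the sexes was 2.93 percentage points, with an exact two-sided permutation p of 0.0833 over 120 assignments and an adjusted p of 0.417 over the 10 positions. Codon 247, for tryptophan, with a codon for aspartate just upstream, averaged 7.58% in Qtrt1-/- females and 9.91% in wild-type females, and 9.50% in Qtrt1-/- males and 9.02% in wild-type males. Codon 254, for aspartate, with a codon for asparagine just upstream, averaged 5.34% in Qtrt1-/- females and 5.59% in wild-type females, and 8.15% in Qtrt1-/- males and 5.41% in wild-type males. At neither did the difference pass the exact permutation test, with p of 0.650 and 0.517.

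Codon 136, for aspartate, had the lowest p of the 10 positions. It held 4.70%, 5.48% and 6.50% of the listed footprints in Qtrt1-/- females and 3.43%, 3.33% and 2.87% in wild-type females, and 1.77% and 2.02% in Qtrt1-/- males and 1.57% and 1.45% in wild-type males. Both sexes had the same order, with no overlap. The exact two-sided permutation p was 0.0167, the smallest that 120 assignments allow, and 0.167 after adjustment over the 10 positions, so it did not pass. It rested on 5 to 51 footprints per library. None of the 10 positions passed after adjustment, which with 120 assignments no position could have done alone.

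**Figure D5:**
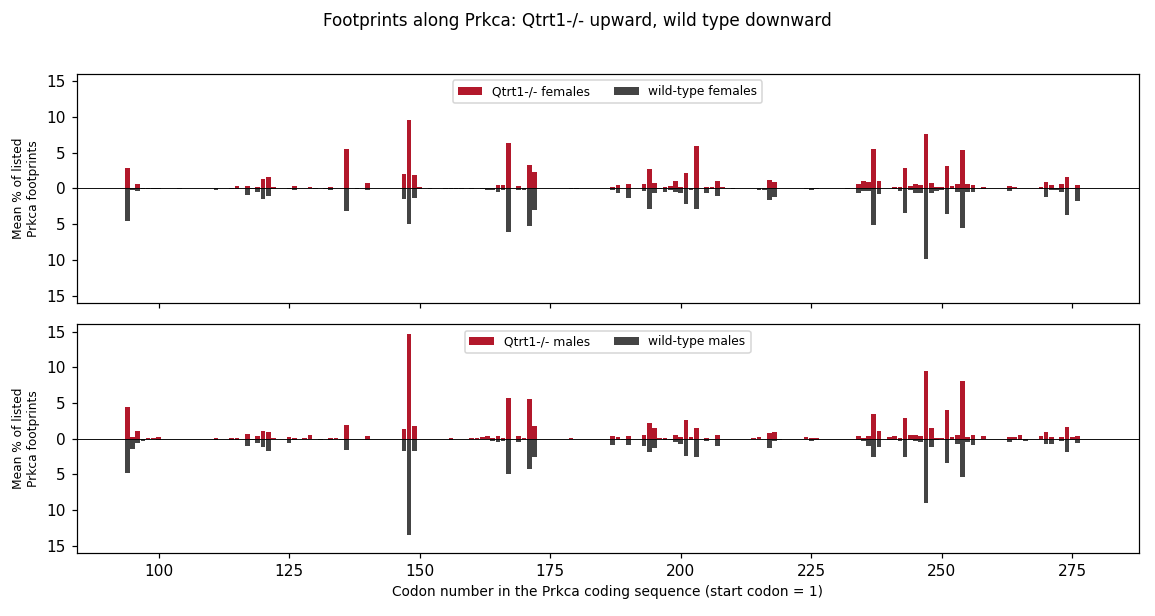
Mean percent of the listed Prkca footprints at each codon (y axis) along codons 94 to 278 (x axis), with Qtrt1-/- animals drawn upward and wild-type animals downward, females above and males below. The highest bar stands at codon 247 in wild-type females and at codon 148 in the other groups, and the female bar at codon 148 is taller in Qtrt1-/- animals, at 9.61%, than in wild-type animals, at 4.98%.

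Queuosine codons as a class were compared in Prkca at the codon just upstream of the listed one, the place where codons differed most in enrichment over all genes, with an SD of 0.79 on the log2 scale against 0.51 at the listed codon. A minimum of 20 codons of each class in every library was met by no kinase, and 10 was used instead, chosen after seeing the data. Footprints per queuosine codon relative to other listed codons were 0.12, 0.45 and 0.55 on the log2 scale in Qtrt1-/- females, 0.85, 0.82 and 0.39 in wild-type females, 0.89 and 0.50 in Qtrt1-/- males, and 0.89 and 0.09 in wild-type males. The groups overlapped in both sexes. The difference averaged over the sexes was −0.05, from −0.31 in females and 0.21 in males, with an exact two-sided permutation p of 0.833. Set against only the codons for phenylalanine and cysteine and the serine codons AGC and AGT, of which 4 to 9 were listed per library, the difference was −0.78 in females, 0.26 in males and −0.26 averaged over the sexes, with an exact permutation p of 0.367. The sign depends on the place read, since at the listed codon itself the difference was 0.31 with an exact permutation p of 0.15. The comparison rested on 17 to 25 queuosine codons per library, and how large a difference they could show was not tested.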

How the data were processed

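Raw whole-number counts per gene symbol were deposited by the authors for 10 footprint and 10 input libraries, without normalization. The authors' codon tables give, per the file headers, counts of footprints per codon. Beside them stand a ratio of each codon's coverage to the mean of its mRNA and the covered percent of the coding sequence, also as deposited by the authors, which were not used for any value here. Tables of codon enrichment were not used here. The submitters' processing notes name SAMtools 0.1.19, Bowtie 1.2.2 and 1.0.0, Trimmomatic 0.39 and cutadapt 1.8.1. Genome build, counting program, use of strand and any molecular identifiers were not given in the sources used here. Listed codons matched GENCODE M21 (GRCm38) in 99.93% to 99.94% of cases.

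The members and lists were chosen with earlier results of these data known. Tests used edgeR 4.0.16 in R 4.3.3 (quasi-likelihood, TMM, filterByExpr on the 4 groups of sex and genotype, group means over all 10 libraries of an assay), with calls at 0.05 after Benjamini-Hochberg adjustment over all genes. Efficiency was the interaction of assay and genotype over 20 libraries, and footprint and input of 1 animal deviated together (r of 0.257 to 0.548). DESeq2 1.42.0, other scaling, no filter, a replicate block, 1 sex alone and leaving out animals were alternatives. The tests were tried on simulated counts with known changes. The labels give separate animals, and p-values measure the spread between them. Replicate libraries differed by more than counting error (chi-square per degree of freedom 3.45 to 14.3). Log2 CPM used a prior count of 2. Named genes were all 9 members, from each pathway list up to 3 called in female footprints, up to 3 in female input and up to 2 in other comparisons, by lowest adjusted p, and the 3 genes most correlated with Camk2a and each called member, of which 2 genes are not reported here. Codon shares were tested by exact permutation of genotype within sex, two-sided.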

Additional observations from a re-analysis of the deposited data

How the results depend on the processing

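The calls of kinases in female footprints (3) and female input RNA (2) were the same with DESeq2 size factors, without a filter on low counts, with DESeq2 and within females alone. Leaving out 1 animal at a time gave 0 to 3 kinases called in female footprints, 0 to 4 in female input RNA, 0 to 1 in footprints over both sexes (0 otherwise), 0 to 2 in input RNA over both sexes (1 otherwise) and 0 to 1 for the sex difference in input RNA (0 otherwise). Without the 3 females highest in striatum markers the counts were 0 in female footprints, 0 in female input RNA and 0 in input RNA over both sexes. Without the 2 females lowest in choroid plexus markers they were 0 in female footprints and 2 in input RNA over both sexes. Both of these settings were chosen after seeing the data, and each leaves 1 wild-type female, assumed to vary like the other groups. Without a filter, and likewise with DESeq2, 1 kinase was called in footprints and 2 in input RNA over both sexes, and DESeq2 called 1 for the sex difference in input RNA.

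Deviations from the group means of same-numbered females correlated at −0.121, −0.177 and −0.207 in footprints. Those of same-numbered males, which share an age, correlated at −0.0778 in footprints and 0.0944 in input RNA. Deviations within a group cancel out, so these values cannot decide whether replicate numbers pair the animals of the 2 genotypes. With a replicate block 2 kinases (Camk2g and Camk4) were called in female footprints, 2 in female input RNA and 0 in input RNA over both sexes, and over all genes 308 against 928 in female footprints and 324 against 493 in female input RNA. With the block by animal no efficiency call changed among the kinases, and 394 against 6 genes were called in females, 1 against 0 in males and 114 against 0 over both sexes.

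Counts over all genes moved elsewhere too. In female footprints 1849 genes were called within females alone, 1 without the striatum-high females, 120 without the choroid-low females and 37 to 1545 when 1 animal was left out. In female input RNA 7 were called without the striatum-high females and 4 to 1030 when 1 animal was left out. Over both sexes, no filter gave 534, DESeq2 525 and the block 2 in footprints against 1, with 22 without the choroid-low females. In input RNA over both sexes the counts were 271, 429, 401 without the choroid-low females and 0 without the striatum-high females, against 104. Efficiency in females gave 138 with DESeq2 and 72 within females alone, and over both sexes 55 with DESeq2 and 1 without a filter. For the sex difference, no filter gave 23 and 1 and DESeq2 25 and 45 in footprints and input RNA, with 2 and 14 without the choroid-low females. In males, DESeq2 called 1 gene in footprints and 3 in input RNA, and no filter gave 1 in footprints. Leaving out 1 animal gave 1 to 1453 genes in footprints and 1 to 699 in input RNA over both sexes, 0 to 10 and 0 to 40 for the sex difference, 0 to 15 in male input RNA, and 0 to 21 for efficiency in females, 0 to 1 in males and 0 to 167 over both sexes.

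Of the kinase fold changes, 12 turned sign under settings other than leaving out 1 animal, and 399 kept direction and side of the threshold. Those that turned were close to 0 or rested on few females. Prkce in female footprints was 6.61e-05 without a filter, 0.0035 within females and 0.0592 without the choroid-low females. Without the striatum-high females, Camk2b and Prkce in female input RNA were −0.14 and −0.0534, Prkcz in male input RNA was −0.000204 and the sex difference of Camk2g in input RNA was 0.0928. Prkcz in male input RNA was −0.0044 within males. Without the choroid-low females, Prkcb efficiency was −0.0038 in females and −0.056 for the sex difference. Camk4 efficiency in males was −0.0016 without a filter and −0.0248 within males. When 1 animal was left out, the ranges that crossed 0 were, in female footprints, −0.23 to 0.0391 for Prkca and −0.0732 to 0.0746 for Prkce. In male footprints they were −0.21 to 0.0808 for Camk2g, −0.30 to 0.0535 for Camk4, −0.0052 to 0.37 for Prkca and −0.10 to 0.0894 for Prkcb. In female input RNA the range was −0.0060 to 0.12 for Camk2b, and in male input RNA −0.31 to 0.11 for Camk2g, −0.0418 to 0.16 for Prkca and −0.0155 to 0.012 for Prkcz. For efficiency they were −0.0632 to 0.17 for Camk2g, −0.0707 to 0.0929 for Camk4 and −0.0602 to 0.18 for Prkcb in males, −0.0013 to 0.12 for Prkcb over both sexes, and −0.0024 to 0.17 for Camk4 and −0.12 to 0.12 for Prkcb between the sexes. The queuosine comparison in Prkca was 0.31 at the listed codon, 0.0064 with at least 2 footprints per codon and −0.25 to 0.15 when 1 animal was left out. The causes were not tested.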
